A study of Mus musculus with 3 samples.

Results

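The cells described here were classical monocytes of the infarcted mouse heart, chosen from all CD45-selected cells by the molecules counted for a few genes. A cell with at least 200 detected genes was taken when it held at least 2 molecules of Ly6c2 and at least 1 of Plac8. It also had to have complement C1q genes (C1qa, C1qb and C1qc) below 0.05% of its molecules and S100a8 plus S100a9 below 1%. The dendritic, T and B cell genes Flt3, Cd209a, Cd3e, Cd3d, Cd3g and Cd79a had to be at 0, and Ace plus Treml4 at 1 molecule at most. The rule found 1645 of 25640 cells, which was 6.42%. The genes of the rule, together with Csf3r, which served to choose the neutrophils, were left out of all counts, sums and tests below.

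The study profiled leukocytes that were released from infarcted hearts by enzymatic digestion after permanent coronary ligation. They were cleared of dead cells and held on anti-CD45 beads. The times after ligation are not stated outright in the labels. Both groups, F7fl/fl CX3CR1Cre and F7fl/fl WT, carried the floxed allele of coagulation factor VII (F7), and in the first group Cre came from the fractalkine receptor gene Cx3cr1, so the deletion depends on cells that use that gene or descend from cells that did. Hearts were marked with sample tags and pooled into 3 libraries on the BD Rhapsody, a microwell system that counts polyadenylated RNA molecules per cell. The 18 tags (7, 5 and 6 per library) were biological replicates per the protocol, but the labels used here give no tag a genotype, time, sex or age. Values are therefore given tag by tag, no tags or libraries were tested against each other, and the tests below compare cell types within the same tag.

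Classical monocytes are made in the bone marrow and spleen, leave through the chemokine receptor Ccr2 and enter injured tissue, where they can become macrophages. They carry Ly6c on the surface, the antimicrobial and chitinase-like proteins Plac8 and Chil3 and the matrix proteoglycan versican (Vcan). In the infarcted heart they arrive in a wave, clear debris, release cytokines and bring clotting and matrix proteins. Non-classical monocytes, which patrol vessels, descend from them and depend on the nuclear receptor Nr4a1.

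Library 1 held 1561 of the 1645 classical monocytes (94.9%). In its 7 tags the share of cells that met the rule had a median of 10.01%, with 8.14% in tag 12 as the lowest and 12.5% in tag 8 as the highest. Library 2 had 51 such cells, at a median of 0.593% and a range of 0.302% to 1.83% over 5 tags. Library 3 had 33, at a median of 0.513% and a range of 0.144% to 1.02% over 6 tags. The shares of library 1 did not overlap those of the other libraries, and the exact Clopper-Pearson 95% interval of the pooled share was 9.74% to 10.7% in library 1, 0.777% to 1.37% in library 2 and 0.415% to 0.846% in library 3 (counting error only). Library 1 alone has F7_d3 in its description and was also made with other capture beads and another pipeline version. Time, beads and processing therefore cannot be told apart.

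**Figure D1:**
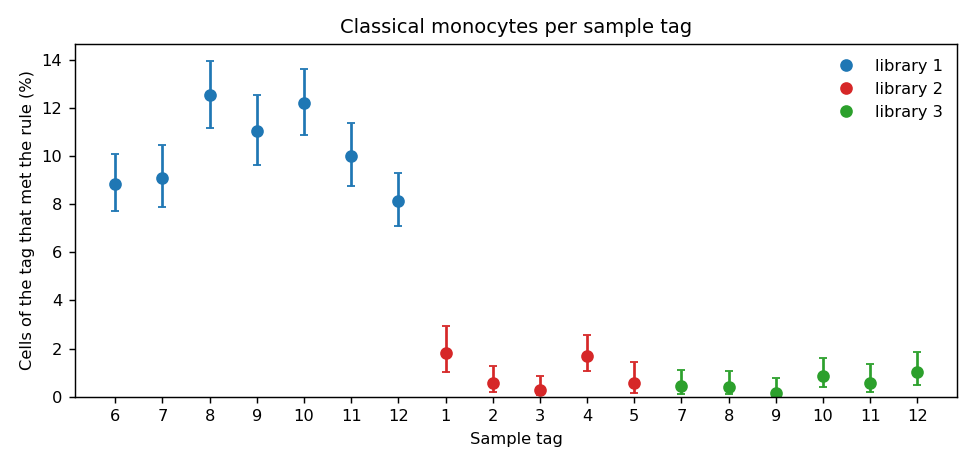
Share of cells that met the rule for classical monocytes (percent, y axis) in each of the 18 sample tags (x axis), coloured by library. Points are shares and bars exact Clopper-Pearson 95% intervals; the 7 tags of library 1 lie between 8.14% and 12.5% and the 11 others between 0.144% and 1.83%.

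The median classical monocyte gave 12619 molecules and 3197 genes, against 20593 molecules in C1q-rich macrophages and 3553 in neutrophils. Library 1 and library 2 shared 4 cell barcode indices, libraries 1 and 3 shared 3 and libraries 2 and 3 none, and no shared index was a classical monocyte in both. Of the 7 classical monocyte markers that the rule did not use, 6 were higher in these cells than in all other cells (the exception was Fn1), and their summed level was 7163 against 2882 CPM (the molecules of a gene scaled to the total of the pooled cells). The 9 macrophage markers outside the rule summed to 4208 against 11806 CPM and 1 of them was higher. The 7 neutrophil markers outside the rule and the neutrophil gate summed to 222 against 191 CPM with 4 higher, the 7 fibroblast markers to 199 against 1508 CPM, and Cd209a, Flt3, Cd3e, Cd3d, Cd3g and Cd79a were at 0 by the rule. The label thus went with the pooled markers, including Vcan, Ccr2 and Chil3, as a description of the chosen cells and not a test. The other cells were pooled over all 3 libraries, whereas 94.9% of the members were of library 1, so library and cell type are mixed in these sums. The markers were uneven among members. In clusters 3, 4 and 8 of library 1 (below) Vcan was at 130, 260 and 132 CPM, against 1012 CPM in all members. The macrophage marker Apoe was at 2796, 2429 and 134 CPM there, against 1326 CPM in all members. Ccr2 was at 1146, 2627 and 1605 CPM, against 2076 CPM in all members.

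Levels are given for the 10 tags with at least 10 classical monocytes: the 7 of library 1, tags 1 (16 cells) and 4 (22 cells) of library 2, and tag 12 of library 3 (10 cells). Ccr2, the receptor for the chemokine Ccl2, was at 2189, 2302, 2015, 1875, 2098, 2215 and 2082 CPM in tags 6 to 12 of library 1, at 1211 and 1451 CPM in library 2 and at 1877 CPM in library 3. Its level in library 1 spanned a narrow range, above both tags of library 2. Chil3, a chitinase-like protein, was at 939, 879.6, 1113, 857, 2058, 867 and 1148 CPM in library 1, at 615 and 510.1 CPM in library 2 and at 1061 CPM in library 3. Tag 10 stood above the other tags of library 1. Vcan was at 1163, 1074, 1141, 779, 1386, 791 and 682 CPM in library 1, at 811 and 332 CPM in library 2 and at 371 CPM in library 3. The tags of library 1 and the first tag of library 2 overlapped, and the other pair were lower. A molecule of Ccr2 was found in 98.7% of the cells, of Chil3 in 82.1% and of Vcan in 78.4%, and with every cell thinned to 3000 molecules (4 shallower cells left out) in 94.3%, 69.0% and 64.7%.

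Haptoglobin (Hp), a plasma protein that binds free haemoglobin, ran from 34.0 CPM in tag 4 of library 2 to 303 CPM in tag 10 of library 1 around a median of 226 CPM. The transglutaminase subunit F13a1, which crosslinks fibrin, had a median of 669 CPM and a range of 309.8 to 986 CPM. Tag 4 of library 2 was the lowest tag for Vcan, Chil3, Hp and F13a1 alike. Fibronectin (Fn1) differed from these genes: it was highest in both tags of library 2, at 4007 and 2320 CPM, and between 1083 and 2158 CPM in the 8 other tags. Csf1r, the receptor for macrophage colony-stimulating factor, was likewise highest in tag 4 of library 2 (1194 CPM) and lay between 534 and 641 CPM in library 1.

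**Figure D2:**
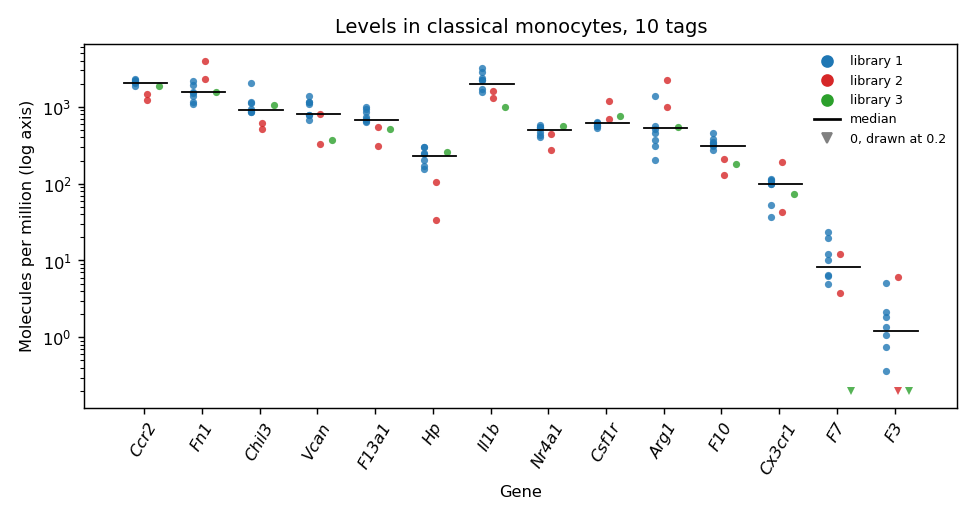
Levels of 14 genes in classical monocytes (CPM, log axis) in the 10 tags with at least 10 such cells, coloured by library, with the median as a line; values of 0 are drawn as triangles at 0.2. Ccr2 spans 1211 to 2302, Arg1 206 to 2237 and F7 0 to 23.6.

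F7, the gene that carries the floxed allele, gave 254 molecules in these 10 tags. It was at 6.23, 6.43, 4.94, 19.3, 12.03, 10.1 and 23.6 CPM in tags 6 to 12 of library 1, at 12.3 and 3.78 CPM in library 2 and at 0 CPM in library 3, where the depth of 94281 molecules allows up to 3 molecules. The values overlapped between libraries, and because tags have no genotype here they say nothing on the deletion. A molecule of F7 was found in 8.88% of classical monocytes and 15.4% of C1q-rich macrophages, and after thinning to 3000 molecules in 2.38% and 4.17%. Cx3cr1, the source of Cre, was at 52.8, 97.9, 36.5, 111, 99.4, 108 and 115 CPM in library 1, at 43.0 and 193 CPM in library 2 and at 74.2 CPM in library 3. Its molecules were found in 35.3% of classical monocytes (18.4% thinned) and 58.5% of macrophages (33.7% thinned). These shares pool all 18 tags and are not paired within tags. Library 1 gave 1561 of the 1645 classical monocytes but 5458 of the 10579 macrophages, so library and cell type are mixed in them.

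Tested within tags over 10 tags (1609 classical monocytes and 6825 C1q-rich macrophages, at least 10 of each per tag), F7 was lower in classical monocytes by a log2 difference of -1.01 ± 0.14 (SE), 8.26 against 16.99 CPM in the median tag, and was higher in 0 of 10 tags (adjusted p = 6.49e-06, edgeR's quasi-likelihood test with Benjamini-Hochberg adjustment over all genes tested). The call for F7 rested on library 1: over the 3 tags outside it the difference was -1.54 with an adjusted p of 0.406, and without the tag as a term it was -0.98 with an adjusted p of 0.0672. F10, the clotting factor that the complex of F7 and tissue factor activates, went the other way, with a log2 difference of 2.998 ± 0.26 (SE; adjusted p = 1.31e-08). It was at 352, 339, 385, 317, 458, 308 and 274 CPM in library 1, at 209 and 128 CPM in library 2 and at 180.3 CPM in library 3. Macrophages of the same tags had a median of 39.9 CPM and reached 123 CPM at most, so the groups did not overlap. Pooled over all 18 tags, and so not within tags, F10 was found in 76.2% of classical monocytes (49.7% thinned) and 23.7% of macrophages (8.56% thinned). Tissue factor (F3), the cell-surface starter of clotting, was scarce in classical monocytes, with 44 molecules in all and a median of 1.22 CPM against 7.29 CPM in macrophages (log2 difference -3.11 ± 0.28, SE; adjusted p = 1.91e-08). Outside library 1 that difference was -1.84 with an adjusted p of 0.558.

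Of all 11906 genes tested against macrophages, 7493 (62.9%) were called at an adjusted p below 0.05: 3524 (29.6%) were higher in classical monocytes and 3969 (33.3%) lower, with a median log2 difference of -0.03. Over the 3 tags outside library 1 (48 classical monocytes) 941 of 10380 genes were called. Among the 23 genes of a coagulation and fibrinolysis list that could be tested, 10 were higher and 10 lower (median log2 difference 0.08). The higher ones included thrombospondin 1 (Thbs1), a platelet and matrix glycoprotein, at 8071 against 1946 CPM (log2 difference 2.14 ± 0.13, SE) and the urokinase receptor Plaur at 611 against 242 CPM. Factor V (F5), the cofactor of F10, was at 56.6 against 33.2 CPM, and thrombomodulin (Thbd), an anticoagulant receptor, at 45.1 against 27.5 CPM. The lower ones included the intracellular protease inhibitor Serpinb6a at 14.6 against 286 CPM, urokinase (Plau) at 34.0 against 88.3 CPM and the tissue factor inhibitor Tfpi at 3.65 against 17.4 CPM. The genes named here all passed the test, and the list as a whole was split between directions.

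Among the genes furthest above macrophages with the same sign in every tag were those of circulating myeloid cells. Cd177, a neutrophil and monocyte adhesion protein, was at 133 against 1.96 CPM (log2 difference 5.94 ± 0.13, SE; adjusted p = 6.15e-17). Vcan was at 801 against 24.4 CPM (4.98 ± 0.27) and Hp at 226 against 9.07 CPM (4.30 ± 0.24). The integrin chain Itgal stood at 133 against 7.99 CPM, and the interferon-inducible membrane protein Ifitm6 at 352 against 18.6 CPM. Outside library 1 these 5 genes kept their direction and call, with smaller differences for Vcan (3.65), Hp (2.89), Itgal (3.11) and Ifitm6 (2.62). Neutrophil markers outside the gates summed to a median of 225 CPM (104 to 488) in classical monocytes and 94.5 CPM (28.2 to 268) in macrophages; their part in the result was not tested.

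On the lower side the furthest genes were Pclaf, a DNA replication factor, at 1.86 against 114 CPM (log2 difference -4.48 ± 0.26, SE), Serpinb6a, topoisomerase Top2a at 9.89 against 214 CPM and the microtubule regulator Stmn1 at 10.3 against 169.6 CPM. They were joined by the Fc receptor-like gene Fcrls at 23.0 against 492 CPM and macrophage elastase Mmp12 at 16.1 against 221 CPM. Of 18 cell cycle genes 17 were lower and none higher (median log2 difference -3.62), among them survivin (Birc5) at 2.03 against 71.0 CPM and the proliferation marker Mki67 at 13.6 against 203 CPM. The exception was the histone H2afz, at a log2 difference of -0.03.

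Genes by which macrophages take up and digest material were mostly lower in classical monocytes. Of 19 scavenger and clearance receptors 15 were lower and 3 higher (median log2 difference -1.87), with the hyaluronan receptor Lyve1 at 0 against 29.3 CPM in the median tag (10 molecules in all) and the folate receptor Folr2 at 15.4 against 196 CPM. Of 24 lipid handling and lysosome genes 20 were lower and 2 higher (median -1.36): apolipoprotein E (Apoe) was at 1438 against 5449.6 CPM and the protease cathepsin D (Ctsd) at 531 against 2328 CPM. Of 14 iron and haem genes 10 were lower and 3 higher (median -0.92). Haem oxygenase (Hmox1) was at 524 against 1766 CPM, and the iron exporter Slc40a1 at 2.21 against 42.4 CPM. Low C1q was a criterion of the rule and high C1q one of the macrophage gate, so genes that vary with C1q were placed apart by the choice of cells.

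Genes of the interferon response stood higher than in macrophages for 41 of 42 members tested, against 29.6% of all genes, with a median log2 difference of 1.34; no member was lower. The exception was the tetherin gene Bst2, at 108 against 148 CPM. Isg15, a ubiquitin-like modifier, was at 158 against 43.97 CPM (log2 difference 1.99 ± 0.19, SE; higher in 10 of 10 tags), Rsad2, the antiviral enzyme viperin, at 224 against 82.2 CPM (8 of 10 tags) and the RNA-binding Ifit3 at 70.3 against 43.9 CPM (6 of 10 tags). These 3 were picked after their values were seen. Over the 3 tags outside library 1 the count was 39 of 42, where 3.75% of all genes were called higher. Within library 1 it was 38 of 42 with 1 lower, where 27.4% of all genes were called higher and 32.5% lower. In library 1 members outside cluster 5 of the clusters below, pooled Isg15 was at 76.0, Rsad2 at 56.1 and Ifit3 at 15.3 CPM. The 42 genes summed to 10076 CPM in those members, against 5173 CPM in the median library 1 tag of macrophages. The part of cluster 5 in the calls was not tested. Ly6c2 also set the groups apart, at 2 molecules or more in members and 1 or less in macrophages. Its pooled level was highest in cluster 5, at 2264 CPM, and ran from 912 CPM (cluster 8) to 2001 CPM (cluster 6) in the others. Genes that vary with Ly6c2 were thus placed apart by the choice of cells, and the part of this in the interferon counts was not tested.

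The tags were spread widely for these genes. Isg15 was at 90.6, 121, 182, 156, 69.3, 263 and 101 CPM in tags 6 to 12 of library 1, at 159.8 and 941 CPM in library 2 and at 318 CPM in library 3. Rsad2 was at 93.5, 167, 469, 281, 53.4, 449 and 128 CPM in library 1, at 326 and 1712 CPM in library 2 and at 0 CPM in library 3. Tag 4 of library 2 was the highest for both, tag 11 or 8 led in library 1, and tag 10 was its lowest. Summed over the 42 genes of the list, tags ran from 9531 CPM in tag 10 of library 1 to 28949 CPM in tag 4 of library 2.

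The promoters of these genes were read from RefSeq (GRCm38.p6), because members that move together can be set against their sequence. The letters searched were GAAANNGAAA on both strands, the core repeat that interferon regulatory factors and their Stat partners are known to bind, within 250 bases upstream of each start; matches could overlap. They were in 18 of the 35 list promoters that the table held (51.4%), against 821 of all 27025 promoters (3.04%). A match is a description of letters and not evidence of binding. Windows of 100 bases are shown for 4 members whose level in each tag is given here, with matches in capitals: Isg15 at chr4:156200860-156200959 on the minus strand (3 overlapping matches), Ifit3 at chr19:34583332-34583431 on the plus strand (2 matches), Rsad2 at chr12:26456548-26456647 on the minus strand and the PHD finger gene Phf11b at chr14:59341356-59341455 on the minus strand (1 match each). All 4 windows lie upstream of the annotated start of their gene.
Isg15: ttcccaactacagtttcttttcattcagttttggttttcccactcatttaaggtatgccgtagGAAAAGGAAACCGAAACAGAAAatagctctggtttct
Ifit3: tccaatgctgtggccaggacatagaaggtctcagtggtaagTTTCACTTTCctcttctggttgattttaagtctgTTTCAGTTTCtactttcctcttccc
Rsad2: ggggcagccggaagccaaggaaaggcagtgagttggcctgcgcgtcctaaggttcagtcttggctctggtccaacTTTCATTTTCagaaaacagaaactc
Phf11b: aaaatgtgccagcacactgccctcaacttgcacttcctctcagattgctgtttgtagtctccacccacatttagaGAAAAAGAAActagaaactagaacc
Ifit3 was at 18.7, 60.1, 122, 80.5, 11.1, 135 and 38.6 CPM in library 1, at 98.3 and 680.1 CPM in library 2 and at 0 CPM in library 3. Phf11b was at 79.2, 136, 204, 157, 79.7, 272 and 122 CPM in library 1, at 184 and 544 CPM in library 2 and at 31.8 CPM in library 3, so that tag 4 of library 2 and tag 11 of library 1 were again high.

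Other lists divided. Of 12 MHC class II and co-stimulation genes 8 were higher than in macrophages and none lower (median log2 difference 0.75): the co-stimulator Cd86 was at 294 against 108 CPM, while H2-Aa, an antigen-presenting chain, did not pass at 606 against 497 CPM (adjusted p = 0.223). Of 26 glycolysis and hypoxia genes 16 were higher and 4 lower (median 0.36). The glucose transporter Slc2a1 was at 178 against 73.4 CPM and the lactate exporter Slc16a3 at 209 against 59.0 CPM. Hif1a, an oxygen-regulated subunit counted with the transcription factors, was at 519 against 191 CPM. With cells thinned to 3000 molecules the glycolysis count was 9 higher and 3 lower of 25, where 19.8% of all genes were higher and 33.7% lower. Outside library 1 it was 1 higher of 26, where 3.75% of all genes were called higher.

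Among 31 transcription factors of the lineage 14 were higher and 7 lower than in macrophages (median log2 difference 0.12). Nr4a2, an orphan nuclear receptor, was higher (1.56 ± 0.12, SE) and the early response factor Egr1 lower (-2.003 ± 0.13). Nr4a1 was at 499 against 356 CPM (0.46 ± 0.14; adjusted p = 0.0102), a call that was lost in thinned cells and turned to -0.19 outside library 1. Of 16 chemokine receptors 8 were higher and 6 lower, with Ccr2 at 2049 against 433 CPM (2.24 ± 0.07; 10 of 10 tags), the leukotriene receptor Ltb4r1 at 27.7 against 5.58 CPM and Cx3cr1 at 98.6 against 164 CPM (-0.71 ± 0.14). Of 25 cytokines and growth factors 9 were higher and 14 lower. Interleukin 1 beta (Il1b) was at 1964 against 557 CPM (1.85 ± 0.17; 10 of 10 tags), and insulin-like growth factor 1 (Igf1) at 29.1 against 427 CPM (-3.40 ± 0.24).

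The remaining lists are given as counts, where 29.6% of all genes were called higher and 33.3% lower. Survival and stress genes, at 27.3% higher and 31.8% lower, lay near those shares. Higher against lower counts were 10 and 3 of 16 for antimicrobial and S100 proteins, 12 and 4 of 21 for adhesion molecules, 23 and 4 of 37 for Fc and pattern recognition receptors, and 15 and 4 of 23 for growth factor and cytokine receptors. They were 13 and 10 of 24 for wound and tissue macrophage genes, 7 and 6 of 17 for NADPH oxidase and antioxidants, 6 and 7 of 22 for survival and stress, and 5 and 8 of 17 for chemokines. Arginase (Arg1), a wound macrophage enzyme, was at 534 against 846 CPM (-0.77 ± 0.23; adjusted p = 0.00753), a call that rested on library 1 (-0.33 outside it, adjusted p = 0.470). Csf1r did not differ detectably, at 617 against 629.6 CPM (-0.01 ± 0.09; adjusted p = 0.926).

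**Figure D3:**
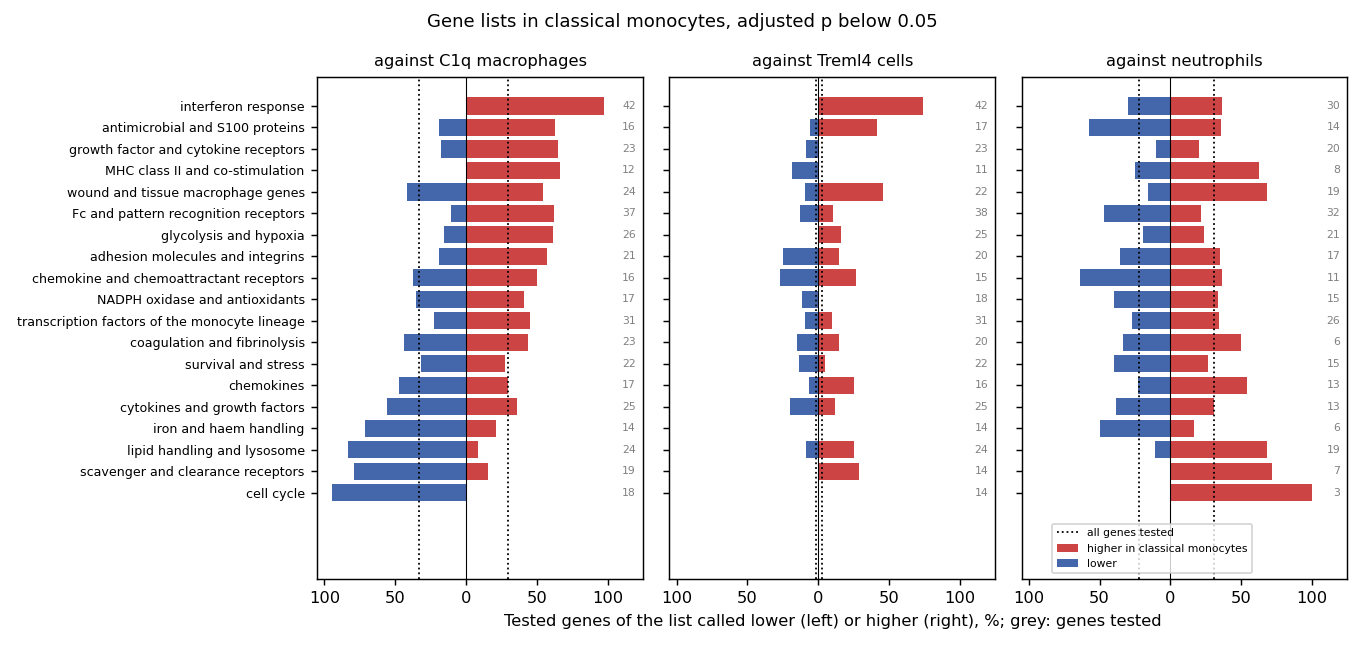
Percent of the tested genes of each list (rows) called higher (right, red) or lower (left, blue) in classical monocytes than in C1q macrophages, Treml4 cells and neutrophils, with the same percent over all genes tested as dotted lines and the number tested in grey. The interferon response list reaches 41 of 42 higher against macrophages and 31 of 42 against Treml4 cells.

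Non-classical monocytes were the nearest relatives. The gate first set for them (Ace plus Treml4 at least 3, Ly6c2 at most 1) caught 269 cells, of which 148 in 8 tags entered the test, and these went against their name: fibroblast markers summed to a median of 26554 CPM there and 46.3 CPM in classical monocytes. Of 10513 genes 5811 (55.3%) were called, and the furthest lower genes in classical monocytes were Sod3, Prelp, Cxcl12, Serpina3n, Tcf21 and Mfap4, which fibroblasts are known for. That comparison is not described further. A gate chosen after seeing this also asked for Treml4 at 1 or more and for collagens (Col1a1, Col1a2 and Col3a1) below 0.05%, with at least 5 cells per tag, and left 71 cells in 7 tags, all of library 1 and 6 to 17 per tag, which are called Treml4 cells here. Their fibroblast markers, some of them collagens that this gate capped, summed to 21.9 CPM (0 to 38.0), against 33.3 CPM (29.9 to 442) in classical monocytes. The 8 non-classical markers outside the gates summed to 1639 CPM (953 to 2484) in Treml4 cells and 782 CPM (621 to 889.9) in classical monocytes. In the neutrophils described below the same markers summed to 1890 CPM (1293 to 4476), so this sum does not tell Treml4 cells from neutrophils.

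Against Treml4 cells 429 of 9725 genes (4.41%) were called, 290 (2.98%) higher in classical monocytes and 139 (1.43%) lower. With DESeq2's size factors 371 genes were called, the share of calls that were higher went from 67.6% to 46.4% and the median log2 difference of all genes from 0.11 to -0.04. The chemokine Ccl2, the ligand of Ccr2, led with 759.7 against 133 CPM (log2 difference 2.54 ± 0.31, SE; adjusted p = 1.74e-07; 7 of 7 tags). It was followed by Phf11b at 136 against 32.9 CPM, the DNA-sensing family member Ifi209 at 269 against 65.7 CPM, the collagenase Mmp8 at 137 against 28.9 CPM, Ly6a at 168 against 15.04 CPM and the chemokine Ccl7 at 313 against 32.6 CPM. All 6 were higher in 7 of 7 tags. The markers that the rule did not use moved with them: Vcan was at 1074 against 218 CPM (2.26 ± 0.19), Ccr2 at 2098 against 1223 CPM (1.19 ± 0.19) and Chil3 at 939 against 461 CPM (1.32 ± 0.17).

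Genes lower in classical monocytes than in Treml4 cells were led by the gelatinase Mmp9 at 13.2 against 147 CPM (-3.42 ± 0.33, SE; adjusted p = 7.92e-10), the ribonuclease Ear2 at 12.1 against 164 CPM and the adhesion receptor Adgre4 at 18.7 against 186 CPM. Histidine decarboxylase (Hdc), interleukin 1 alpha (Il1a) and the tetraspanin Cd9 completed the 6, at 45.6 against 228, 58.2 against 418 and 97.4 against 456 CPM. Mmp9 and Hdc are also neutrophil markers, and the 7 neutrophil markers outside the gates summed to 752 CPM (252 to 1451) in Treml4 cells and 219 CPM (104 to 304) in classical monocytes; their part in these differences was not tested. Nr4a1 was lower in classical monocytes in 7 of 7 tags, at 527 against 981 CPM (-0.80 ± 0.16; adjusted p = 0.000876). Cx3cr1 was at 99.4 against 144 CPM (-0.82 ± 0.24; adjusted p = 0.0317), a call that was lost without the tag as a term (adjusted p = 0.0696).

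The interferon list again leaned to classical monocytes, with 31 of 42 members higher than in Treml4 cells and none lower (median log2 difference 1.53, against 0.11 over all genes). Isg15 was at 121 against 17.3 CPM (2.29 ± 0.33, SE) and Rsad2 at 167 against 33.8 CPM (2.27 ± 0.38). The count was 26 with DESeq2's size factors, where 1.77% of all genes were higher. It was 21 of 41 without the tag as a term, where 3.01% of all genes were higher. Both comparisons use the same classical monocytes of library 1, so they do not stand for each other. Treml4 cells, like macrophages, were limited to 1 molecule of Ly6c2 at most, and the part of this limit was not tested. Of 22 wound genes 10 were higher and 2 lower, with the matrix protein Tgfbi at 3177 against 1248 CPM, and of 17 antimicrobial genes 7 were higher and 1 lower. No iron gene of 14 and no cell cycle gene of 14 was called. As 4.41% of all genes were called, lists this short do not show equal levels. F13a1 was higher (1.98 ± 0.19), whereas F10 at 339 against 231 CPM (0.61 ± 0.21; adjusted p = 0.0971) and F7 at 10.1 against 3.76 CPM (-0.36 ± 0.62; adjusted p = 0.867) did not pass. For F7 the medians over tags and the fitted difference had opposite directions.

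Neutrophils, the other phagocytes that enter from blood, were chosen by S100a8 plus S100a9 at 3% or more and Csf3r. Only 5 tags held at least 10 of them (76 neutrophils and 869 classical monocytes), and with their low RNA content 2810 genes could be tested. Of these 1496 (53.2%) were called, 863 (30.7%) higher in classical monocytes and 633 (22.5%) lower. Without the 1 tag of library 3, which is shallow, 8645 genes could be tested and 2399 were called. Vcan had 2 molecules in neutrophils against 13712, a ratio of 162 with a 95% interval from counting of 44.7 to 1335, and Chil3 had 3 against 16751, a ratio of 132 (45.0 to 638). Ifi209 had none in neutrophils and was at least 20.2-fold higher in classical monocytes, taking 3 molecules over the group as the floor. On the same floor the nucleoside transporter Slc29a3 was at least 13.96-fold higher, the leukotriene receptor Cysltr1 at least 10.9-fold, the dehydrogenase Aldh9a1 at least 10.4-fold and H2-DMa, which loads MHC class II molecules, at least 9.94-fold.

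Ccr2 was at 2098 against 36.0 CPM (log2 difference 5.74 ± 0.35, SE; adjusted p = 4.00e-12), the chemokine Ccl9 at 1302 against 54.1 CPM and the monocyte transcription factor Klf4 at 742 against 18.02 CPM, each higher in 5 of 5 tags. On the neutrophil side were the resistin-like Retnlg at 2.57 against 2698 CPM (-10.07 ± 0.43), Chil1 at 0 against 505 CPM, the cystatin-like Stfa2l1 at 4.16 against 1402 CPM and the protease Asprv1 at 10.6 against 1255 CPM. The chemokine receptor Cxcr2 followed at 16.1 against 2008 CPM and the non-coding Mirt2 at 1.47 against 354 CPM. Il1b was lower in classical monocytes, at 2348 against 7325 CPM (-1.59 ± 0.22). F10 was at 339 against 22.3 CPM in the median tag (1.498 ± 0.45; adjusted p = 0.00728), a call lost without the tag as a term. The fitted F10 difference was smaller than these medians give. F7 and F3 were too rare to test.

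Against neutrophils the interferon list was split, with 11 of 30 tested members higher and 9 lower. Ms4a4c was at 516 against 0 CPM in the median tag and Ifitm3 at 1925 against 676 CPM, while Slfn4 was at 380.3 against 3761 CPM, Ifitm1 at 211 against 1579.6 CPM and Rsad2 at 93.5 against 387 CPM. Of 19 lipid and lysosome genes 13 were higher and 2 lower, of 19 wound genes 13 and 3, and of 8 MHC class II genes 5 and 2. Of 32 Fc and pattern recognition receptors 7 were higher and 15 lower, and of 11 chemokine receptors 4 and 7. Fcgr1, the high-affinity receptor for immunoglobulin G, had 2 molecules in neutrophils against 3902, a ratio of 45.99 (12.7 to 379.9).

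The C1q limit of the rule cut through a gradient. Among members, 744 cells had no C1q molecule and 901 had some below 0.05%, and 334 further cells with 0.05% to 0.2% met every other criterion, as did 808 at 0.2% or more. Vcan was lower from each set to the next, with pooled levels of 1124, 934, 377 and 114 CPM. Apoe went the other way with 1089.9, 1493, 2369 and 4655 CPM, and the lipid-sensing receptor Trem2 with 94.1, 142, 234 and 409.8 CPM. F10 was at 367, 337, 279 and 83.8 CPM. F7 was at 7.65, 13.9, 24.8 and 16.0 CPM, highest just outside the limit. These are descriptions of cells ordered by the rule itself and carry no test.

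At the Ly6c2 limit, the 150 members with exactly 2 molecules and the 199 cells outside with exactly 1 were close for Ccr2 (1694 and 1628 CPM) and Chil3 (913 and 801 CPM). They were further apart for Vcan (635 and 448 CPM), F10 (293 and 221 CPM) and Apoe (1891 and 2531 CPM).

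**Figure D4:**
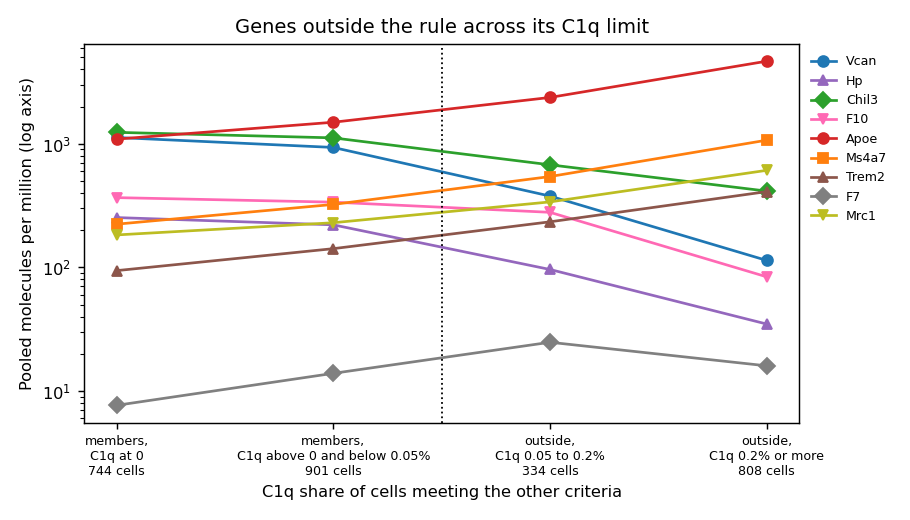
Pooled levels (CPM, log axis) of 9 genes in cells that met every other criterion, in 4 sets ordered by C1q share (x axis, with cell numbers); the dotted line is the limit of the rule. Vcan goes from 1124 to 114 and Apoe from 1089.9 to 4655.

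Within library 1 the 1561 members were clustered to describe how they vary. The 9 clusters at a resolution of 0.6 became 6 at 0.4 (adjusted Rand index 0.572), 11 at 1.0 (0.668) and 8 with another random seed (0.672), so their borders are loose; they have no names and no tests. Cluster 1 (328 cells, 21.0%) was led by Cxcl3, Il1a, the prostaglandin synthase Ptgs2 and the antiprotease Slpi, with Il1b at 4875 against 1684 CPM in the other members and Thbs1 at 17431 against 7379.5 CPM. It held 9.66% of the members in tag 9 and 33.6% in tag 10. Cluster 2 (300 cells) had Itgal, Ifitm6, Vcan and Hp above the other members, and cluster 6 (161 cells) was led by Add3 at 515 against 87.3 CPM and Mgst1 at 515 against 139 CPM.

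Cluster 3 (202 cells) was led by osteopontin (Spp1) at 4707 against 489 CPM, Gpnmb at 1334 against 132 CPM, Ccl7, Fabp5 and Cd36. It had the macrophage marker Ms4a7 at 858 against 155 CPM, and Vcan at 130 CPM. Its cells had a median of 17886.5 molecules, and 10 were among the top 2% of doublet scores, as were 18 of all members; the part of doublets was not tested. Cluster 4 (200 cells) had H2-Aa at 1501 against 410.2 CPM and Cx3cr1 at 248 against 63.9 CPM. Cluster 5 (175 cells) carried the interferon genes, with Cxcl10 at 1530.5 against 22.4 CPM, Rsad2 at 1628 against 56.1 CPM and Ifit3 at 460.0 against 15.3 CPM. It made up 3.69% of the members in tag 10 and 24.3% in tag 11, the tags that were lowest and highest in library 1 for Isg15 in the same cells.

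Cluster 7 (122 cells) had Hmox1 at 1295 against 580.1 CPM and F10 at 675 against 328 CPM. Cluster 8 (38 cells) was led by H2-Eb1, another MHC class II gene, and had H2-Ab1 at 6015 against 557 CPM. It also had the integrin chain Itgax at 386 against 53.6 CPM and the natural killer genes Klrd1 and Klrb1b. Chil3 was at 246 CPM and F13a1 at 171 CPM there, against 1166 and 770 CPM in all members. Cluster 9 (35 cells) had the neutrophil genes Cxcr2 at 401 against 2.85 CPM and Mmp9 at 450.4 against 6.09 CPM. Genes known from other cell types stood high in clusters 8 and 9, and the part of such cells was not tested. Across single members the summed MHC class II level differed 27.1-fold between the 90th and the 10th percentile of cells, chemokines 11.6-fold, coagulation genes 6.64-fold and interferon genes 4.39-fold. Over the 1561 cells, which share depth and library, the lipid and scavenger lists had a Spearman correlation of 0.635, lipid and iron 0.581, glycolysis and wound genes 0.522, and antimicrobial and lipid genes -0.429.

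**Figure D5:**
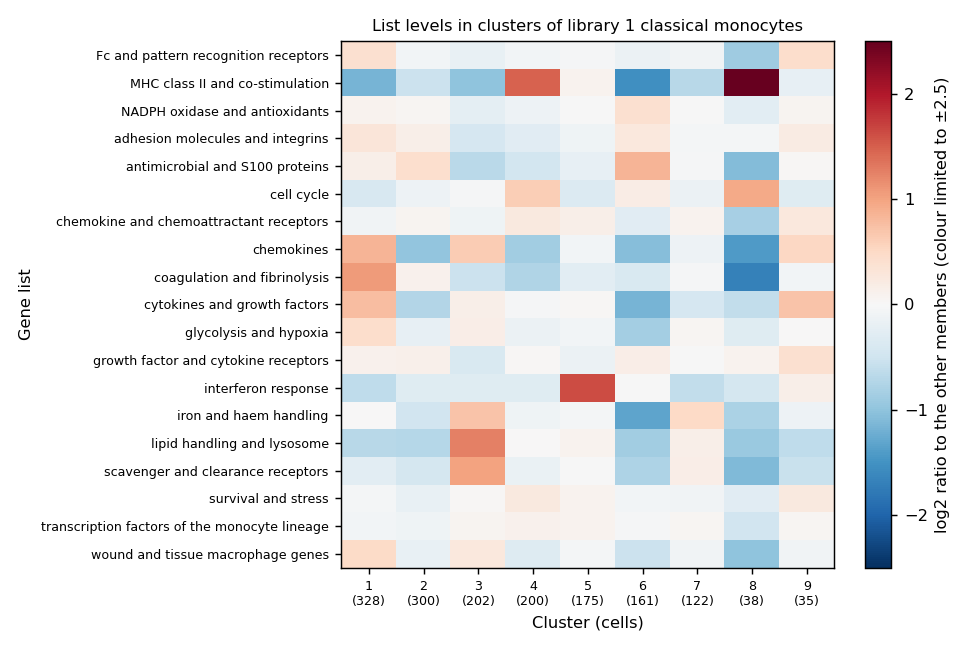
Summed level of each gene list (rows) in each of 9 clusters of library 1 classical monocytes (columns, with cell numbers), as the log2 ratio to the other members, red for higher and blue for lower. Cluster 5 is highest for the interferon response and cluster 8 for MHC class II.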

How the data were processed

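Molecule counts per cell and gene were deposited by the authors as one table per sample tag. Per the file headers and labels, the BD Rhapsody pipeline counted unique molecules (corrected for sequencing errors by RSEC) against GRCm38 with GENCODE M19. Library 1 used version 2.0b1, enhanced beads and intronic reads, and libraries 2 and 3 version 1.10 and original beads. No source used here says whether multiplets were removed. Counts were summed per tag and cell type and turned into CPM. Tests were edgeR 4.0.16 quasi-likelihood tests (R 4.3.3) with TMM, filterByExpr, tag as a term and Benjamini-Hochberg adjustment at 0.05, over tags with at least 10 cells of both types. They were tested on simulated data of one fixed dispersion, with changes planted in a small part of the genes fitted. Of the planted 2-fold changes 74%, 93% and 51% were recovered against the first non-classical gate (9745 genes fitted), macrophages (11506 fitted) and neutrophils (2440 fitted). The comparison with Treml4 cells was not simulated. Macrophages had C1q at 0.2% or more of molecules and Ly6c2 at 1 or less, with the other exclusions of the rule. The authors' genotype key was not used here. The members, the 19 gene lists and the gates were chosen with earlier results of these data known. Genes are named by size (the 6 largest differences each way with one sign in every tag and at least 100 CPM, the largest per list at 20 CPM or more, and 12 fixed genes, among them F7, F10 and F3); other list members, the genes of the C1q and Ly6c2 limits and the clusters' genes were picked after their values were seen. Clusters came from scanpy 1.11.5 and leidenalg 0.10.2. Scrublet called 1 of 25640 cells and so did not work; leaving out the top 2% of its scores was an alternative. Other alternatives were DESeq2 1.42.0, no filter, other thresholds, thinning to 3000 molecules and leaving out each library. Some genes are not reported here.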

Additional observations from a re-analysis of the deposited data

Results flagged for a closer look

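In 34 sets of tag values the highest or lowest tag was compared with its nearest neighbour. The share of classical monocytes was checked in each library, and the levels of lists and genes in library 1. Chance alone marks about 1 in 20 sets, and here 4 sets had a tag far from the others. All 4 concerned tag 10 of library 1. Its Chil3 level in classical monocytes was 2058 CPM, against 857 to 1148 CPM in the other 6 tags. Arg1 was at 1363 CPM there and 206 to 571 CPM elsewhere. The summed glycolysis and hypoxia level was 10256 CPM and 6906 to 7903 CPM elsewhere. F3 was at 5.05 CPM and 0.361 to 2.11 CPM elsewhere, on few molecules. The same tag had the largest share of cluster 1 (33.6%) and the lowest summed interferon level (9531 CPM).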

How the results depend on the processing

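Cell types were paired by tag in every test except those named as without the tag term; libraries could not be paired, since the labels put them in a single group. Leaving out each library moved the number of classical monocytes between 84 and 1612, with 84 left without library 1. The genes called against macrophages ranged from 941 (without library 1, 3 tags) to 7651 over the left-out libraries, were 4834 after thinning to 3000 molecules, and lay between 6184 and 7964 under the other settings. Against neutrophils leaving out a library gave 1496 to 2399 genes; 2399 were called in library 1 alone, where 8645 genes could be tested, 2289 with C1q below 0.02%, 2382 with Ly6c2 at 3 or more and 2859 with S100 genes at 1% or more. Against the first non-classical gate 845 genes were called after thinning, 429 with the Treml4 and collagen gate, 371 with that gate and DESeq2's size factors and 473 with it and no tag term; leaving out library 2 or 3 gave 5811 to 6211. Without library 1, the log2 differences from macrophages turned for Scarb1 (-0.10, and up to 0.57 without another library), Hk3 (0.028, and down to -0.35) and Nr4a1 (-0.19, and up to 0.59), and those of Slc16a3, Npc2, Slc11a1, Il1r2, Cat, Bcl2l11, F7, F3 and Arg1 were no longer called. Csf1r, near 0 against macrophages, turned positive with at least 20 cells per tag (0.082), without library 2 (0.039) or library 3 (0.041; -0.49 without library 1), in library 1 alone (0.10), with C1q below 0.02% (0.10) and with Ly6c2 at 3 or more (0.043). Against the first non-classical gate Cx3cr1 (-0.60) and Il1b (-0.13) turned after thinning and Nr4a1 without a filter (0.0054). Too few tags for a fit remained for libraries 2 and 3 alone, and, for neutrophils and the first non-classical gate, without library 1 and with at least 20 cells per tag; neutrophils could also not be fitted after thinning. Without the tag term F7, Arg1, Hk3 and Npc2 were no longer called against macrophages, and Osm, Ndrg1, Fos and Cx3cr1 against Treml4 cells. The cause of these shifts was not tested. Leaving out the top 2% of doublet scores changed no count by over 1.5 times. Tags outside library 1 rest on 10 to 22 cells each, which limits single levels there; p-values measure the spread between tags of mixed, unlabelled genotype and time.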
